A study of Mus musculus with 6 samples.

Results

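The trophectoderm is the outer epithelium of the mouse blastocyst. Its cells are the first in development to build a keratin network, in which a type II keratin pairs with a type I keratin to form an intermediate filament. The filaments end at desmosomes, adhesive junctions in which cadherins of the Dsg and Dsc families bind the neighbouring cell and the plaque proteins plakoglobin, plakophilin and desmoplakin tie them to keratin. The genes described here are the 4 simple-epithelium keratins Krt7, Krt8, Krt18 and Krt19 and 6 desmosome components, namely the cadherins Dsg2 and Dsc2, the plaque proteins Jup and Pkp2, the plakin Dsp and the membrane protein Perp. They were chosen by gene symbol, matched to the Ensembl identifiers of the deposited table. All 10 were present among the 55774 entries of the table, and all 10 were among the 11924 genes that passed the filter on low values.

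RNA had been sequenced from 6 pools of 10 wild-type (WT) ICR mouse blastocysts, which had grown from 2-cell embryos in CZB medium with extracellular vesicles from human Fallopian tubes (oEV). In 3 pools the vesicles came from women with endometriosis (oEV-EMT), and in the other 3 pools from control women (oEV-ctrl). The labels name uterine fibroids as the condition of the control women whereas the methods of the study name cervical intraepithelial neoplasia. Embryos without vesicles were not analysed here, so every pool had received human vesicles. Nothing in the labels says whether the pools came from separate cultures or separate vesicle donors, and p-values therefore measure the spread between these pools, which may be technical. Each pool holds trophectoderm, epiblast and primitive endoderm together, so fewer cells of a type and less RNA per cell cannot be told apart.

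The deposited values are FPKM, in which fragments are divided by transcript length and by the size of the library, so that genes of different length share 1 scale. Read totals are not part of such values. The smallest steps of the FPKM of genes with 1 annotated transcript gave relative depths of 1.0, 0.584 and 0.685 with oEV-EMT and of 0.483, 0.662 and 0.881 with oEV-ctrl, a difference of up to 2.07 times. An unannotated entry, new_gene48, held between 15.3% and 31.5% of the summed FPKM, with the highest share in oEV-ctrl 1, which was also the shallowest library. Groups were compared as log2(FPKM + 1) with limma, and a gene was called when its adjusted p-value was at most 0.05 and its absolute log2 fold change at least 1. The added 1 shrinks fold changes at low FPKM. Over all tested genes the median log2 fold change was 0.17 (oEV-EMT minus oEV-ctrl), with quartiles at -0.05 and 0.40. This shift moved with the scaling, to 0.01 with median-of-ratios factors, -0.04 with equal upper quartiles and 0.27 with annotated genes set to the same sum.

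The values of the abundant pair Krt8 and Krt18 overlapped fully between the groups, whereas plakoglobin (Jup), Krt19 and Perp lay higher in every oEV-EMT library than in every oEV-ctrl library. None of the 10 genes passed both thresholds, and neither did any other gene (0.0% of 11924 tested, smallest adjusted p-value 0.0934, with 1831 genes reaching 0.05 before adjustment). The ratio of the group means (oEV-EMT to oEV-ctrl) was 2.46 for Jup, 1.93 for Krt19 and 1.5 for Perp. Those 3 of the 10 genes were higher without overlap between the groups, against 18.1% of all tested genes, and none was lower without overlap, against 4.34%. They were also the 3 with a p-value of 0.05 or less before adjustment, against 12.8% of all tested genes higher at that level, while none of the 10 was lower at that level, against 2.55%. These counts and their background moved with the scaling. With median-of-ratios factors 2 of the 10 genes were higher without overlap (Jup and Krt19) and 1 lower (Pkp2), against 9.94% and 10.2% of all tested genes. With equal upper quartiles 1 was higher (Jup) and 1 lower (Pkp2), against 7.59% and 12.5%. With annotated genes set to the same sum 3 were higher and 0 lower, against 23.5% and 2.55%. Without the shallowest library, oEV-ctrl 1, 3 were again higher and 0 lower, against 22.1% and 7.32%. Those shares are also raised because fewer libraries separate more easily. The median log2 fold change over the 10 genes was -0.02, which is -0.19 once the median of all genes is subtracted, and 4 of the 10 lay above that median.

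**Figure D1:**
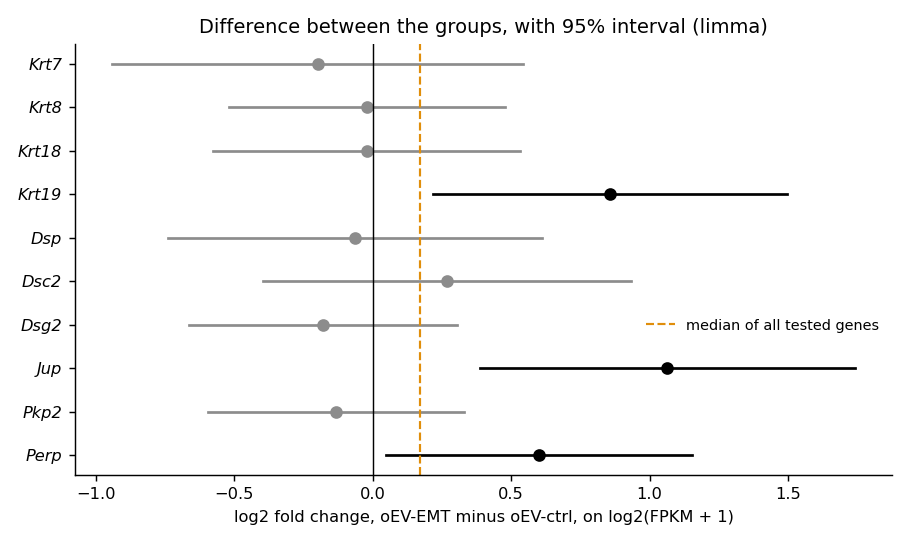
Log2 fold change of each keratin and desmosome gene on the log2(FPKM + 1) scale (points, oEV-EMT minus oEV-ctrl, 3 libraries each) with its 95% interval from limma (lines). Black marks the genes whose groups do not overlap (Krt19, Jup and Perp), grey the others, and the dashed line is the median of all 11924 tested genes at 0.17.

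The levels of the 10 genes differed widely. Krt18 and Krt8 were by far the most abundant, with mean FPKM over the 6 libraries of 2573 and 1185, ranks 59 and 132 among the tested genes. Perp followed at 48.7 and Dsg2 at 23.9. Krt7 (20.2) and Pkp2 (13.6) came next, and Krt19 (6.57), Dsc2 (6.34), Jup (4.93) and Dsp (4.85) were the lowest. Krt18 exceeded Krt8, Krt8 exceeded Perp, and Perp exceeded Dsg2 in 6 of 6 libraries. Krt7 exceeded Pkp2 and Pkp2 exceeded Krt19 in 6 of 6 libraries as well. The other neighbours could not be separated by their spread, as Dsg2 was above Krt7 in 4 of 6 libraries, Krt19 above Dsc2 in 4, Dsc2 above Jup in 5 and Jup above Dsp in 2. The library oEV-EMT 1 held the highest value of 5 of the 10 genes and oEV-EMT 3 the lowest value of 3. How often these libraries were highest or lowest over all tested genes was not counted. The median-of-ratios factor of oEV-EMT 1, 1.17, was the largest of the 6 libraries.

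**Figure D2:**
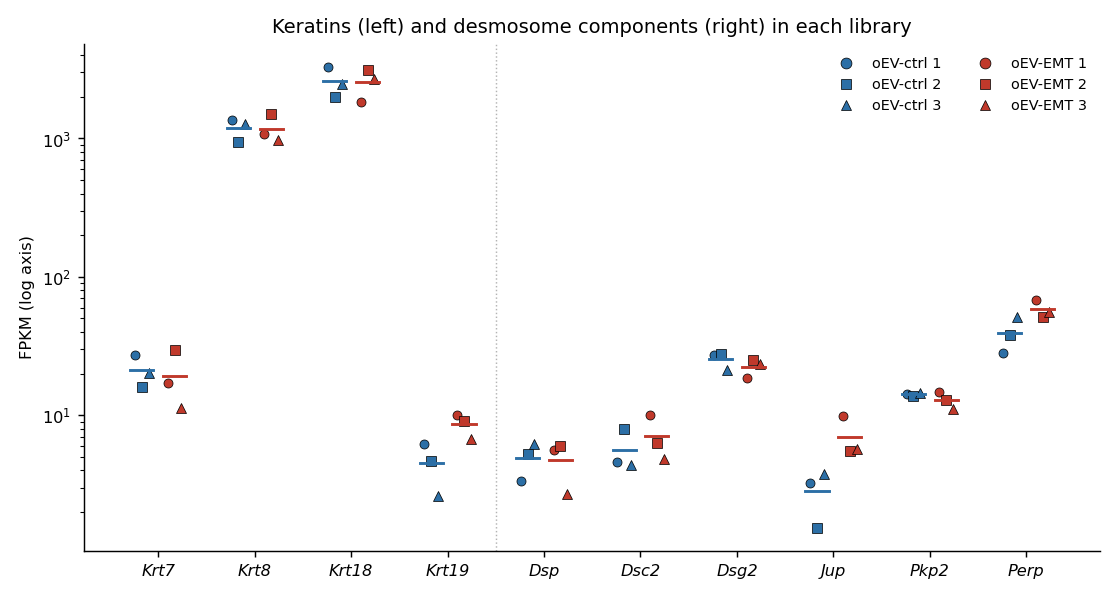
FPKM of the 4 keratins (left of the dotted line) and the 6 desmosome components (right) in each of the 6 libraries, on a log axis. Symbols stand for libraries and horizontal bars for group means, and Krt8 is at 938.5 or more in every library while no value of Jup is above 9.85.

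Krt8, the type II keratin of simple epithelia, and Krt18, its type I partner, lie head to head on chromosome 15 of GRCm38, where GENCODE places Krt8 at chr15:101996698-102004482 on the minus strand and Krt18 at chr15:102028180-102032027 on the plus strand, 23697 bases apart. Krt8 measured 1078, 1491 and 968.6 FPKM with oEV-EMT and 1369, 938.5 and 1266 FPKM with oEV-ctrl. The groups overlapped fully, with means of 1179 ± 275.5 and 1191 ± 224.8 (SD, n = 3 each). Their log2 fold change was -0.02 (SE 0.23, 95% interval -0.52 to 0.48, limma adjusted p-value 0.972). Krt18 measured 1842, 3127 and 2698 FPKM with oEV-EMT and 3283, 1992 and 2493 FPKM with oEV-ctrl. Its highest value was that of oEV-ctrl 1 and its lowest that of oEV-EMT 1, and the log2 fold change was again -0.02 (SE 0.25, 95% interval -0.58 to 0.53, adjusted p-value 0.973). Both intervals lie within 1 on the log2 scale in either direction.

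The ratio of Krt8 to Krt18 FPKM, taken within a library and so free of the scaling between libraries, was 0.585, 0.477 and 0.359 with oEV-EMT and 0.417, 0.471 and 0.508 with oEV-ctrl. The oEV-EMT ratios spread on both sides of the oEV-ctrl ratios. Krt8 and Krt18 together made up 99.1% to 99.5% of the FPKM of the 4 keratins in every library. The 4 keratins held 0.398%, 0.608% and 0.459% of the FPKM of annotated genes with oEV-EMT and 0.556%, 0.349% and 0.472% with oEV-ctrl, again with overlap.

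A processed pseudogene of Krt8 bears on its measurement. Krt8-ps, at chr7:23357125-23358069 on the plus strand of GRCm38, holds 26.93% of the 50-base stretches of the Krt8 transcripts, and 98.2% of its 945 aligned bases are identical to Krt8, the longest identical run being 299 bases. Fragments from such a run cannot be assigned to either gene by sequence. The following pair is shown since it is the 90-base stretch within 1 coding exon where the copies differ most. It covers chr15:102003998-102004087 on the minus strand, in exon 1 of Krt8, and chr7:23357277-23357366 on the plus strand in Krt8-ps, both written 5′ to 3′ from the GENCODE M21 transcripts, with the 4 differing bases in capitals.
Krt8: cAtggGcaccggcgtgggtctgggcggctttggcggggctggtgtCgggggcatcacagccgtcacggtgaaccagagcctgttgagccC
Krt8-ps: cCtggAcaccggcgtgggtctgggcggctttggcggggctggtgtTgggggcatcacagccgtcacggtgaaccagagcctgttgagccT

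Krt8-ps was listed at 36.6, 73.3 and 37.5 FPKM with oEV-EMT and 44.2, 28.6 and 47.8 FPKM with oEV-ctrl. That was between 3.05% and 4.92% of the Krt8 value of the same library. The library with the most Krt8, oEV-EMT 2, also had the most Krt8-ps, and that with the least Krt8, oEV-ctrl 2, had the least. For the sum of Krt8 and Krt8-ps the log2 fold change was -0.01. The overlapping Gm36026 on the other strand of Krt8 was at most 0.536 FPKM. Whether the values of Krt8-ps are its own transcripts was not tested.

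Krt7, a further type II keratin of simple epithelia and later a marker of trophoblast, lies on the same chromosome as Krt8, past its 3′ end, at chr15:101411043-101430313 on the plus strand. It measured 17.1, 29.5 and 11.3 FPKM with oEV-EMT and 27.4, 16.1 and 20.1 FPKM with oEV-ctrl. Both the highest and the lowest of these values were oEV-EMT libraries. Its log2 fold change was -0.20 with an interval from -0.94 to 0.54, the widest of the 10 (SE 0.33, adjusted p-value 0.801). Krt7 was between 1.17% and 2.0% of the Krt8 level of the same library.

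Krt19, the type I keratin without a tail domain, lies at chr11:100140810-100148665 on the minus strand. It measured 10.1, 9.12 and 6.74 FPKM with oEV-EMT and 6.19, 4.66 and 2.60 FPKM with oEV-ctrl. Every oEV-EMT library was above every oEV-ctrl library, although oEV-EMT 3 and oEV-ctrl 1 were close. The means were 8.65 ± 1.73 and 4.48 ± 1.805 FPKM (SD, n = 3 each), a ratio of 1.93. On the log2 scale the change was 0.86 (SE 0.29, 95% interval 0.22 to 1.497), with an unadjusted limma p-value of 0.0135 that did not pass the adjustment over all genes (0.22). An exact two-sided permutation test gave p = 0.1, the smallest that 3 against 3 libraries allow. From the depth derived above and the longest coding transcript, about 585, 309 and 268 fragments stood behind the oEV-EMT values and 173, 179 and 132 behind the oEV-ctrl values. Set against Krt18 of the same library, Krt19 was 0.548%, 0.292% and 0.25% with oEV-EMT and 0.189%, 0.234% and 0.104% with oEV-ctrl. These did not overlap, as Krt19 alone did not, so the ratio is not separate evidence.

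The cadherins of the desmosome were measured without a separation of the groups. Desmoglein 2 (Dsg2), the desmoglein of simple epithelia, measured 18.7, 25.1 and 23.3 FPKM with oEV-EMT and 27.2, 27.9 and 21.2 FPKM with oEV-ctrl. Only oEV-ctrl 3 lay within the range of the oEV-EMT libraries. Dsg2 had a log2 fold change of -0.18 (SE 0.22, 95% interval -0.66 to 0.30, adjusted p-value 0.723). Its partner desmocollin 2 (Dsc2) measured 9.97, 6.31 and 4.83 FPKM with oEV-EMT and 4.57, 7.96 and 4.37 FPKM with oEV-ctrl. High and low values occurred in both groups, and the log2 fold change was 0.27 (SE 0.30, 95% interval -0.40 to 0.93, adjusted p-value 0.698). Dsg2 was 1.88 to 4.82 times Dsc2 with oEV-EMT and 3.5 to 5.95 times with oEV-ctrl. Gm16090, antisense to Dsg2, was at most 0.0294 FPKM.

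Plakoglobin, encoded by Jup, is an armadillo protein that binds the tails of both desmosomal and classical cadherins and is a close relative of β-catenin. It showed the largest difference of the 10 genes. Jup measured 9.85, 5.48 and 5.67 FPKM with oEV-EMT and 3.25, 1.53 and 3.77 FPKM with oEV-ctrl. The lowest oEV-EMT library stood above the highest oEV-ctrl library, and the whole range over the 6 libraries was 6.43 times. The means were 7.004 ± 2.47 and 2.85 ± 1.17 FPKM (SD, n = 3 each). This gave a log2 fold change of 1.06 (SE 0.31, 95% interval 0.39 to 1.74), and of 0.89 after subtraction of the all-gene median. The unadjusted limma p-value of 0.00566 ranked 381 among the 11924 genes and did not pass the adjustment (0.174), and the exact two-sided permutation test gave p = 0.1, the smallest possible. About 1161, 377 and 458 fragments stood behind the oEV-EMT values and 185, 120 and 391 behind the oEV-ctrl values. The number of fragments thus overlapped between oEV-EMT 2 and oEV-ctrl 3, whose depths were 0.584 and 0.881.

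The start region of Jup is shown because Jup differed most, beside that of Dsp, its partner in the plaque, whose groups overlapped. Of the 10 genes, 5 had an entry in the RefSeq table of start regions (GRCm38.p6), namely Jup, Dsp, Krt7, Krt8 and Krt18. The sequences are the 250 bases before the RefSeq start, chr11:100397791-100398040 on the minus strand for Jup and chr13:38151044-38151293 on the plus strand for Dsp, written 5′ to 3′ with matches to the CCAAT box (CCAAT) and the GC box (GGGCGG) on either strand in capitals.
Jup: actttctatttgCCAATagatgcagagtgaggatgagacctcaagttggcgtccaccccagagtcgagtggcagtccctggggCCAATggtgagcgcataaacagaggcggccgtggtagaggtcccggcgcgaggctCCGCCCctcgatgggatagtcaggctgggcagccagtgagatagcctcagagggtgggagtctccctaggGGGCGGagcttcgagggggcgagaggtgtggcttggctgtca
Dsp: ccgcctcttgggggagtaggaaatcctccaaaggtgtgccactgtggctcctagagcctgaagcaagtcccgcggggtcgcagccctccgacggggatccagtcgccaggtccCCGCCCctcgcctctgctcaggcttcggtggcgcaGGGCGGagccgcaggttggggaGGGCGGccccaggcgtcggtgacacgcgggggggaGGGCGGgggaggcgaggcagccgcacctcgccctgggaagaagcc

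The Jup region holds 2 CCAAT boxes and 2 GC boxes, and the Dsp region holds 4 GC boxes and no CCAAT box. Over all 32851 start regions, 33.8% hold a CCAAT box and 32.7% a GC box. The GC content was 62.0% for Jup, 72.4% for Dsp, 66.0% for Krt7, 58.0% for Krt8 and 60.4% for Krt18, against a median of 52.4% over all regions. For Krt7, Krt8 and Krt18 the RefSeq start lies inside the GENCODE gene, so their regions overlap GENCODE transcripts of the same gene and are not printed. The printed Dsp region lies within the predicted gene Gm10129 on the other strand. Neither the Krt8 nor the Krt18 region holds a CCAAT or a GC box, while the Krt7 region holds 4 GC boxes. The letters TATAAA (in 12.4% of all regions), TGANTCA of the AP-1 site (6.75%) and CATTCC of the TEAD site (12.6%) were in none of the 5 regions. The AP-2 letters GCCNNNGGC (13.7%) matched 2 times in Krt7 and 1 time each in Dsp and Krt18, and the GATA letters AGATAA (9.99%) 1 time in Krt8. Both strands were searched.

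Plakophilin 2 (Pkp2), the other armadillo protein of the plaque among the 10 genes, was the steadiest of these genes. It measured 14.8, 12.9 and 11.0 FPKM with oEV-EMT and 14.3, 13.7 and 14.6 FPKM with oEV-ctrl. The oEV-ctrl libraries lay close together and inside the range of the oEV-EMT libraries. Pkp2 had a log2 fold change of -0.13 (SE 0.21, 95% interval -0.60 to 0.33, adjusted p-value 0.788). With median-of-ratios or upper-quartile scaling all oEV-EMT values of Pkp2 were below all oEV-ctrl values, at log2 fold changes of -0.32 and -0.38 and adjusted p-values of 0.496 and 0.451.

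Desmoplakin (Dsp), the plakin that links the plaque to keratin filaments, measured 5.63, 6.005 and 2.69 FPKM with oEV-EMT and 3.35, 5.27 and 6.17 FPKM with oEV-ctrl. The groups overlapped over most of their range, and the log2 fold change was -0.06 (SE 0.30, 95% interval -0.74 to 0.61, adjusted p-value 0.938). The predicted gene Gm10129, which lies across the start of Dsp on the other strand and shares 4.66% of its stretches, was at most 0.432 FPKM.

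Perp, a tetraspan membrane protein of the desmosome that is also a known target of p53, lies at chr10:18845020-18857073 on the plus strand. It measured 68.0, 51.4 and 55.6 FPKM with oEV-EMT and 28.1, 37.8 and 51.1 FPKM with oEV-ctrl. The groups did not overlap, but oEV-EMT 2 and oEV-ctrl 3 nearly touched. The means were 58.3 ± 8.65 and 39.0 ± 11.5 FPKM (SD, n = 3 each). The log2 fold change was 0.60 (SE 0.25, 95% interval 0.05 to 1.15, adjusted p-value 0.293, unadjusted 0.0363), and the exact two-sided permutation p-value was 0.1. With median-of-ratios and with upper-quartile scaling the groups overlapped, and the log2 fold change became 0.41 and 0.34. Trp53, the gene of p53, measured 49.98, 25.8 and 22.7 FPKM with oEV-EMT and 10.3, 10.9 and 17.6 FPKM with oEV-ctrl, a log2 fold change of 1.23 (SE 0.32, adjusted p-value 0.164). The ratio of Perp to Trp53 was 1.36, 1.99 and 2.45 with oEV-EMT and 2.73, 3.47 and 2.9 with oEV-ctrl, so it was lower in every oEV-EMT library. This restates that Trp53 differed more than Perp and is not a further result. The activity of p53 was not tested.

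Ratios within a library set the plaque genes against each other without any scaling between libraries. Jup was 0.664, 0.424 and 0.515 times Pkp2 with oEV-EMT and 0.228, 0.112 and 0.259 times with oEV-ctrl. Against Ctnnb1, the gene of β-catenin, Jup was 11.6%, 9.49% and 9.03% with oEV-EMT and 4.39%, 2.39% and 5.25% with oEV-ctrl. Both ratios separated the groups, as Jup alone did, so they are not separate evidence. How many ratios of other gene pairs would separate the groups was not counted. The ratio of Jup to Dsp did not separate them, with 1.75, 0.913 and 2.11 against 0.972, 0.291 and 0.611. Perp was 12.1, 8.56 and 20.7 times Dsp with oEV-EMT and 8.4, 7.17 and 8.29 times with oEV-ctrl. These were separated by a small gap, as Perp alone was. The 6 desmosome components together held 0.0171%, 0.014% and 0.0128% of the FPKM of annotated genes with oEV-EMT and 0.00959%, 0.0111% and 0.0126% with oEV-ctrl. These shares did not overlap but were nearly equal in oEV-EMT 3 and oEV-ctrl 3, and most of them came from Perp and Dsg2. Unlike the ratios, such a share depends on a scaling, that of annotated genes set to the same sum. Under it 23.5% of all tested genes were higher without overlap, and their median log2 fold change was 0.27. The log2 fold change of Dsg2 was -0.08 there.

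**Figure D3:**
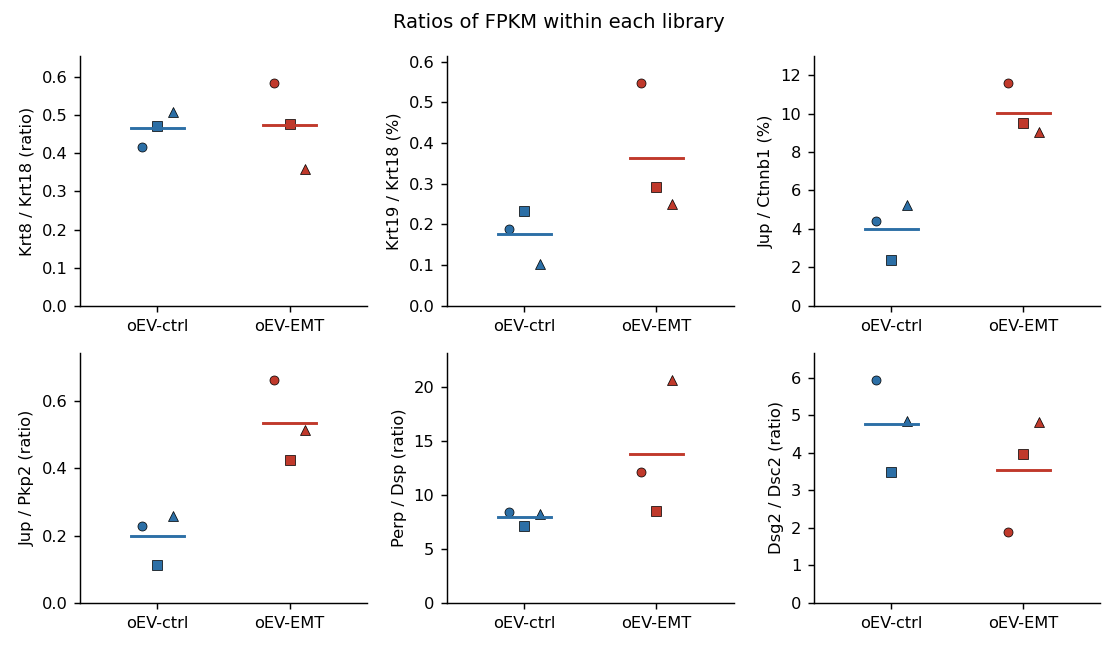
Ratios of FPKM between pairs of genes within each library, as a ratio or in percent as each axis states, all axes starting at 0. Symbols stand for the 3 libraries of a group and bars for the group mean. Krt19 to Krt18, Jup to Ctnnb1, Jup to Pkp2 and Perp to Dsp separate the groups, as Krt19, Jup and Perp alone do. Krt8 to Krt18 and Dsg2 to Dsc2 do not separate them.

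The 15 alternative settings varied scaling, filter, pseudocount, variance, weights, block and left-out library. In all of them the log2 fold changes of Jup, Krt19, Perp and Dsc2 were positive and those of Dsg2 and Pkp2 negative. That of Dsc2 fell as low as 0.02. Relative to the median of all genes, Jup, Krt19 and Perp were higher in 15 settings but Dsc2 in 13. Dsc2 was at -0.12 without oEV-EMT 1 and -0.08 without oEV-ctrl 3. Leaving out each library in turn moved the log2 fold change of Jup between 0.79 and 1.24, that of Krt19 between 0.58 and 1.08 and that of Perp between 0.39 and 0.81. Across all settings the adjusted p-value of Jup ran from 0.101 to 0.63, that of Krt19 from 0.0705 to 0.663 and that of Perp from 0.194 to 0.674, so no setting brought any of them to 0.05. Jup separated the groups under 4 of 4 scalings, Krt19 under 3 and Perp under 2. The signs of Krt7, Krt8, Krt18 and Dsp changed between settings.

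**Figure D4:**
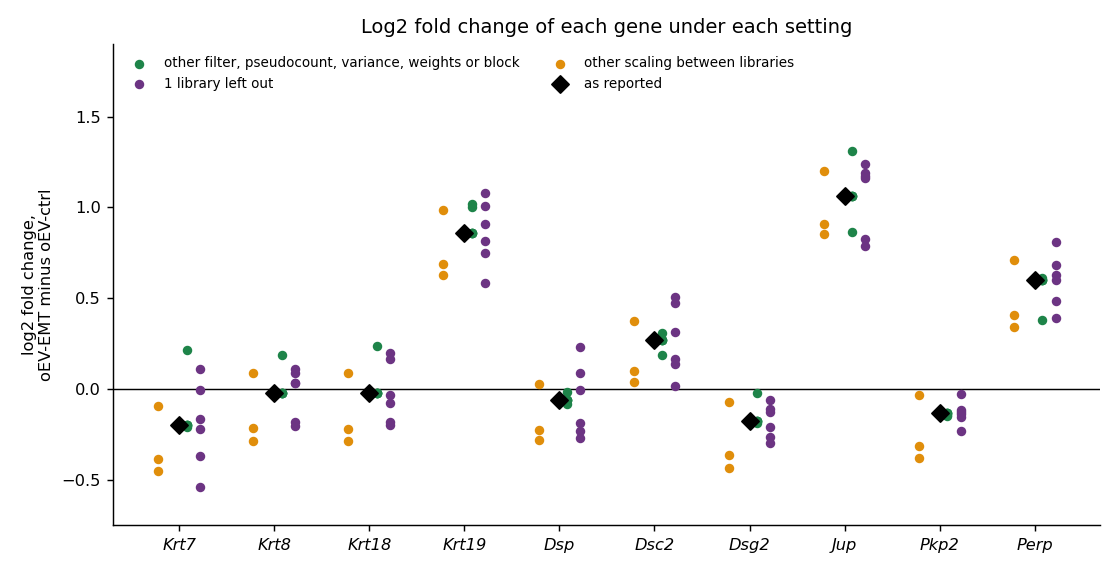
Log2 fold change (oEV-EMT minus oEV-ctrl) of each gene as reported (diamonds) and under other scalings between libraries (orange), with 1 library left out (purple) and under the other settings (green). Jup, Krt19, Perp and Dsc2 stay above 0 and Dsg2 and Pkp2 below 0, whereas Krt7, Krt8, Krt18 and Dsp lie on both sides.

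Other keratins were low or silent, apart from Krt10. Of 49 further keratin genes, 22 were above 0 in at least 1 library and only Krt10, the type I keratin of differentiated epidermis, was tested. Krt10 measured 10.2, 10.5 and 13.5 FPKM with oEV-EMT and 11.3, 11.1 and 12.1 FPKM with oEV-ctrl, a log2 fold change of -0.02 (adjusted p-value 0.968). Of the type II keratins of epidermis, Krt1 was at most 0.0421 FPKM, and Krt2 and Krt5 were listed at 0 in all 6 libraries. None of them was among the tested genes.

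Of 13 other desmosome genes, 9 were above 0 and 3 were tested, and none passed the test in either direction. Plakophilin 4 (Pkp4) had means of 3.83 ± 1.14 and 3.28 ± 0.0883 FPKM in oEV-EMT and oEV-ctrl, and plakophilin 3 (Pkp3) of 1.59 ± 0.574 and 1.52 ± 0.419 FPKM (SD, n = 3 each). Periplakin (Ppl), a relative of desmoplakin, measured 1.24, 1.08 and 1.15 FPKM with oEV-EMT and 1.65, 1.41 and 1.28 FPKM with oEV-ctrl. All its oEV-EMT values lay below its oEV-ctrl values, with a log2 fold change of -0.18 (adjusted p-value 0.673). Of the 3 tested, 1 was thus lower without overlap, against 4.34% of all tested genes. The desmogleins and desmocollins of skin, Dsg1a, Dsg1b, Dsg1c, Dsg3, Dsg4, Dsc1 and Dsc3, were not among the tested genes, so Dsg2 and Dsc2 were the desmosomal cadherins that passed the filter.

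Of the linkers of keratin, 5 of 9 genes were tested and none was called. Their median log2 fold change was 0.24 against 0.17 over all genes. Macf1, a spectraplakin that crosslinks actin and microtubules, had the highest level at 22.2 ± 3.27 and 17.5 ± 3.56 FPKM in oEV-EMT and oEV-ctrl (SD, n = 3 each). Of 16 other intermediate filament genes, 4 were tested (Vim and the lamins Lmna, Lmnb1 and Lmnb2), with a median of 0.42 and no call. Vimentin (Vim), the intermediate filament of mesenchymal cells, measured 9.89, 6.49 and 6.62 FPKM with oEV-EMT and 3.36, 3.77 and 4.26 FPKM with oEV-ctrl. The groups did not overlap, and the log2 fold change of 0.83 (SE 0.23) did not pass the adjustment (0.171). Of the 4 tested, 1 was thus higher without overlap, against 18.1% of all tested genes. Of the hemidesmosome genes Itga6 and Cd151 were tested, with log2 fold changes of 0.53 and 0.19 (adjusted p-values 0.431 and 0.789).

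In the classical cadherin complex of adherens junctions all 4 genes were tested and none was called or separated the groups. E-cadherin (Cdh1) measured 44.4, 30.1 and 22.4 FPKM with oEV-EMT and 49.5, 36.1 and 34.3 FPKM with oEV-ctrl, a log2 fold change of -0.33 (adjusted p-value 0.585). Ctnnb1 measured 84.7, 57.8 and 62.8 FPKM with oEV-EMT and 74.2, 64.2 and 71.8 FPKM with oEV-ctrl, a log2 fold change of -0.05 (adjusted p-value 0.928). The median of the complex was 0.05, against 1.06 for Jup.

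**Figure D5:**
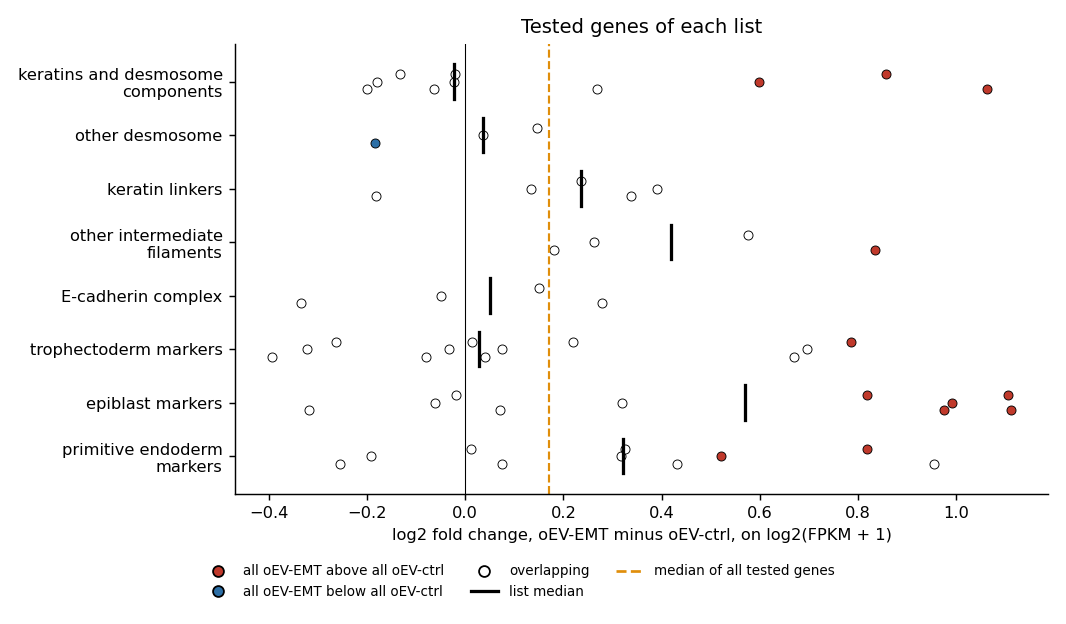
Log2 fold change (oEV-EMT minus oEV-ctrl, on log2(FPKM + 1)) of every tested gene of each list, with list medians as black bars and the median of all tested genes, 0.17, as a dashed line. Filled points are genes whose groups do not overlap, red where oEV-EMT was higher and blue where it was lower, and 5 of the 10 epiblast markers and 3 of the 10 keratin and desmosome genes are red, against 18.1% of all tested genes.

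Transcription factors known from trophectoderm and other epithelia were set beside these genes. Of 18 listed, 16 were tested, with a median log2 fold change of 0.06 and no call. Of these 16, 2 were higher without overlap, against 18.1% of all tested genes. They were Trp53 and Grhl3, a grainyhead factor of epithelia (log2 fold change 0.60, adjusted p-value 0.287, named after its values were seen). The 3 most abundant were Elf3, Klf5 and Gata3, with log2 fold changes of 0.12, -0.28 and -0.26.

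Markers of the cell lineages were set beside these genes because a pool holds all of them. All 12 trophectoderm markers passed the filter on low values. They had a median log2 fold change of 0.03, against 0.17 over all genes, and 8 of the 12 lay below that all-gene median. Their summed FPKM was 1300 to 1982 with oEV-EMT and 1521 to 2447 with oEV-ctrl. The groups overlapped in this sum and in Id2, the most abundant of the markers. Id2 made up most of the sum in every library, at 1446, 1614 and 931.8 FPKM with oEV-EMT and 1137, 2102 and 1782 FPKM with oEV-ctrl. The sum therefore follows Id2 and does not speak for the other markers. Lgals3 alone separated the groups in this list (means of 146 and 85.1 FPKM, adjusted p-value 0.164). That is 1 of 12 genes higher without overlap, against 18.1% of all tested genes. The 10 epiblast markers had a median of 0.57, with 5 higher without overlap (against 18.1% of all tested genes) and none called, and summed to 235.9 to 284.3 FPKM with oEV-EMT and 117.3 to 192.7 FPKM with oEV-ctrl, without overlap. Nanog had means of 51.8 ± 5.09 and 25.4 ± 12.3 FPKM and Gdf3 of 32.1 ± 3.01 and 14.7 ± 3.86 FPKM (SD, n = 3 each; adjusted p-values 0.187 and 0.118). The list did not move as 1 group, since 4 of its 10 genes lay below the median of all genes, namely Sox2, Esrrb, Prdm14 and Klf2 with log2 fold changes of -0.32, -0.06, -0.02 and 0.07 (named after their values were seen). The 10 primitive endoderm markers had a median of 0.32, with 2 higher without overlap (against 18.1% of all tested genes) and none called. They summed to 202.7 to 410.6 FPKM with oEV-EMT and 236.1 to 336.5 FPKM with oEV-ctrl. The summed level of the epiblast markers, though not each of them, thus separated the groups as Jup, Krt19 and Perp did. Dppa4 and Nanog, the most abundant epiblast markers (means over the 6 libraries of 76.5 and 38.6 FPKM), each separated the groups and weigh most in that sum. With equal upper quartiles the median of the epiblast list was 0.31, against -0.04 over all genes, and the sum was not repeated under other scalings. The part of cell numbers in those differences was not tested.

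Markers of cells that could be carried over were at or near 0, apart from Krt10. Granulosa and cumulus markers summed to at most 0.486 FPKM over 8 genes in any library, with Amh, Fshr, Cyp19a1 and Ptx3 listed at 0 throughout. Oviduct epithelium markers summed to at most 0.349 FPKM over 5 genes, with Foxj1, Wt1 and Muc16 at 0. Keratinocyte markers summed to 10.5 to 13.7 FPKM with oEV-EMT and 11.2 to 12.2 FPKM with oEV-ctrl over 8 genes. Nearly all of that sum was Krt10, and Krt2, Krt5, Flg and Ivl were at 0.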

How the data were processed

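Polyadenylated RNA from pools of 10 blastocysts was converted to TruSeq libraries. The authors assembled transcripts with StringTie on mm10 (both from the submitters' processing notes, the aligner being not given in the sources used here) and deposited 1 FPKM value per gene and library. Their methods speak of TPM, but the sums differ between libraries, which TPM do not, so the values were treated as FPKM. The authors used DESeq2 for their own gene list, which could not be run here since the table holds no counts.

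The filter kept the 11924 genes that reached 1 FPKM in 3 libraries or more. A pseudocount of 1 was added, and the log2 values were compared by limma (version 3.58.1, R 4.3.3), using its trend and robust options. P-values were adjusted by Benjamini-Hochberg over all tested genes. Single genes were also compared by exact two-sided permutation, which cannot give a p-value below 0.1. Names and coordinates came from GENCODE M21 on GRCm38. Sequence shared between genes was searched as identical 50-base stretches of transcripts on either strand. The strand setting of the authors' quantification is not given in the sources used here, so reads of overlapping genes on opposite strands may not be separated. The approximate fragments per gene assume that the smallest FPKM step is 1 fragment and that the longest coding transcript sets the length.

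The 10 genes and the related lists were chosen with earlier results of these data known. All 10 were named. Of each list, up to 3 tested genes with the highest mean FPKM could be named, plus genes with an adjusted p-value of at most 0.1 or, where the groups did not overlap, a log2 fold change of 1 or more in size, and other genes are named only where a count of 5 or fewer needed it. Alternatives covered scaling, filter, pseudocount, variance, library weights, replicate block, left-out libraries and the sum of Krt8 with its pseudogene. Python 3.11.15 and matplotlib 3.10.9 made the figures.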

Additional observations from a re-analysis of the deposited data

How the results depend on the processing

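No keratin or desmosome gene was called under any alternative, and the count of all genes past both thresholds was 0 except in a few settings. It was 104 with library quality weights and 21 with the replicate number as a block (replicate block), and it ran from 0 to 17 when libraries were left out, with 17 without oEV-ctrl 3, 4 without oEV-EMT 1 and 1 without oEV-EMT 3. Pools with the same number correlated at 0.12, -0.04 and 0.04 in their deviations from the group means. Pools with different numbers correlated at -0.13 to 0.12. The labels do not say whether pools with the same number were processed together, and with 3 pools per group these correlations cannot decide it. Directions of genes near 0 turned. With annotated genes set to the same sum the log2 fold changes of Krt8, Krt18 and Dsp were 0.0882, 0.0865 and 0.0269, and with library quality weights those of Krt7, Krt8 and Krt18 were 0.21, 0.19 and 0.24. Leaving out libraries gave -0.54 to 0.11 for Krt7, -0.20 to 0.11 for Krt8, -0.20 to 0.20 for Krt18 and -0.27 to 0.23 for Dsp. The cause was not tested. Of the 10 genes, 1 to 4 were higher and 0 or 1 lower without overlap in any setting. Over all genes 13.6% to 26.1% were without overlap in either direction in the settings with all 6 libraries. With 1 library left out the share was 28.4% to 39.7%, highest without oEV-EMT 1. Groups of fewer libraries separate more easily, so these shares are not comparable with those from all 6. Of all genes without overlap, 80.7% were higher with oEV-EMT as deposited, 49.4% with median-of-ratios factors, 37.7% with equal upper quartiles and 90.2% with annotated genes set to the same sum. Read totals are unknown, so no counting interval is given, and with 3 pools per group the median standard error of a log2 fold change was 0.24.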
